A study of Homo sapiens with 12 samples.

Results

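The transcripts described here are the 10 genes of the interleukin-1 (IL-1) family system IL1A, IL1B, IL36G, IL18, IL33, IL1RN, IL36RN, IL1R1, IL1RAP and IL1R2. They were taken by symbol from a table of 19223 gene symbols, and 9 of the 10 passed the filter on low counts that left 14360 genes for testing. The table holds RNA-seq counts of HN6 and HN30, established cell lines of oral squamous cell carcinoma (OSCC), the cancer of the lining epithelium of the mouth. Each line received by lipid transfection either a scrambled siRNA (NC), siFAT1-1 or siFAT1-2, both directed at FAT1, which encodes an atypical cadherin of the cell surface. Cells were harvested 24 h later and poly(A) RNA was sequenced for 6 conditions with 2 biological repeats, which makes 12 libraries. The sample titles call the knockdown groups FAT1-sh1 and FAT1-sh2, while the sample descriptions and the study's methods call them siRNAs. Every library, NC included, was transfected, and no untransfected cells were part of the comparison. Expression refers to read counts scaled to library size (CPM) normalized by the trimmed mean of M-values (TMM).

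IL-1α (IL1A) and IL-1β (IL1B) are inflammatory cytokines that signal through IL1R1 together with the accessory chain IL1RAP, which recruits MYD88 and IRAK kinases and ends in activation of NF-κB and MAP kinases. Epithelial cells of the mouth and skin hold IL-1α as a preformed alarm signal and release it upon injury, and they also make IL-36γ, IL-18 and IL-33. The pathway is restrained by IL1RN and IL36RN, antagonists that occupy the receptors without activating them, and by IL1R2, a decoy receptor that binds IL-1 but transmits no signal.

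The region upstream of the transcription start is shown for the 2 agonist genes that fell with siFAT1-1, IL1A and IL1B, and for the decoy receptor gene IL1R2, which differed between the siRNAs. The 150 bases before one RefSeq start of each gene (GRCh38.p14) are written 5′ to 3′ on the strand of the gene, and capitals mark motif matches. The windows are chr2:112784494-112784643 on the minus strand for IL1A, chr2:112836780-112836929 on the minus strand for IL1B and chr2:101991810-101991959 on the plus strand for IL1R2.
IL1A: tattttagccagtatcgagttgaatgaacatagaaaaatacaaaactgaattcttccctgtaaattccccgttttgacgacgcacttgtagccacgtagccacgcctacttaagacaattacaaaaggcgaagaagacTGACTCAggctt
IL1B: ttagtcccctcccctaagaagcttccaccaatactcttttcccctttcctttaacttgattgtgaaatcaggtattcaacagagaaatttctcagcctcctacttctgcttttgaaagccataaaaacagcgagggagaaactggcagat
IL1R2: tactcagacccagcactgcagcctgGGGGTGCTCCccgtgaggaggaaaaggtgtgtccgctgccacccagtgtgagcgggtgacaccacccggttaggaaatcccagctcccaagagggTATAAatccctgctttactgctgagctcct
Searched were the AP-1 motif TGANTCA and the NF-kappa B motif on both strands, and the TATA motif TATAA on the strand of the gene. In IL1A the AP-1 match begins at base -12 from the start. The IL1B window holds no match to any of the 3 motifs. In IL1R2 the NF-kappa B match begins at base -125 and the TATAA match at base -30. Another RefSeq start of IL1R2, with the window chr2:101998811-101998960, has no match to the 3 motifs. IL1A holds TATAA at base -239, outside the bases shown. The window of its other start overlaps the one shown and has 2 AP-1 matches, the first of which is the match already marked. Over the 250 bases upstream of all 35116 RefSeq promoters in the table, 6.57% hold the AP-1 motif, 9.96% the NF-kappa B motif and 13.6% TATAA. A match is a description of letters, and no binding was measured here. Of the 10 genes, 9 had an entry in the promoter table, and IL18 had none.

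FAT1 itself was lower in all 8 knockdown libraries than in the NC libraries of the same line. In HN6 its mean was 61.8 CPM in NC, 10.6 CPM with siFAT1-1 (17.1% of NC) and 17.3 CPM with siFAT1-2 (28.0%). In HN30 it was 14.2 CPM in NC, 5.55 CPM with siFAT1-1 (39.1%) and 9.27 CPM with siFAT1-2 (65.4%). Total counts ran from 26430049 to 47639010 per library, and the log2 CPM of repeats correlated across genes at r = 0.947 to 0.9899. The lowest of these correlations was between the 2 NC libraries of HN6. In both lines the first NC repeat stood apart from the second in several transcripts given here, among them IL1A in HN6 and IL1B and IL1RN in HN30, and values without it are given beside the results it moves most. The epithelial identity of the lines was checked on 15 keratinocyte and squamous markers, of which all had counts and whose summed level lay between 2527 and 12490 CPM. Of 14 myeloid markers 10 had a count anywhere. CD68 had 16.1 to 121 CPM, CSF1R 6.33 to 31.6 CPM and CD14 2.07 to 15.0 CPM over the libraries, while PTPRC, the common leukocyte marker, reached at most 1 count in a library, and CD163, FCGR3A, TYROBP and MS4A7 were at 0 in all 12. Summed levels were 31.0 to 132 CPM for the myeloid list, 0.246 to 1.64 CPM for 10 lymphocyte, 31.9 to 167 CPM for 10 fibroblast and 0.260 to 10.3 CPM for 8 endothelial markers.

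IL1B, the main secreted agonist of the family, was lower in every knockdown library than in NC of its line, and fell with siFAT1-1. In HN6 it stood at 83.8 and 41.3 CPM in the NC repeats, at 12.4 and 12.7 CPM with siFAT1-1 and at 18.7 and 36.4 CPM with siFAT1-2. In HN30 the NC repeats had 385 and 141 CPM, the siFAT1-1 repeats 33.0 and 32.6 CPM and the siFAT1-2 repeats 135 and 128 CPM. The ranges of NC and knockdown did not overlap in either line, and IL1B was the only tested member of which this was true. Over all genes tested, 3.06% lay below NC in all 8 knockdown libraries and 2.23% lay above. Relative to NC, the mean with siFAT1-1 was 20.1% in HN6 and 12.5% in HN30, a log2 fold change of -2.64 over both lines (SE 0.354, adjusted p = 0.00319, edgeR quasi-likelihood test with Benjamini-Hochberg adjustment). With siFAT1-2 the means were 44.1% and 49.9% of NC, a log2 fold change of -1.08 (SE 0.335, adjusted p = 0.0564), which missed the threshold of 0.05. The first NC repeat was the higher one in both lines, and without the second NC repeat of HN30 the siFAT1-2 value was -1.29. Without the first NC repeat of HN30 the siFAT1-1 value was -2.31 (adjusted p = 0.0124) and the siFAT1-2 value -0.71 (adjusted p = 0.218). IL1B lies on chromosome 2 at 112829751 to 112836816 (GRCh38, minus strand), and IL1A follows downstream in the same cytokine cluster at 112773925 to 112784493.

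IL1A, whose product is active before any processing, fell with siFAT1-1 but was not shown to change with siFAT1-2. In HN6 its level was 115 and 22.4 CPM in NC, 11.5 and 19.0 CPM with siFAT1-1 and 18.2 and 42.8 CPM with siFAT1-2. In HN30 it was 209 and 231 CPM in NC, 73.0 and 69.5 CPM with siFAT1-1 and 159 and 216 CPM with siFAT1-2. The siFAT1-1 libraries did not reach the NC range in either line, whereas the siFAT1-2 libraries overlapped NC in both lines. The log2 fold change of siFAT1-1 was -1.92 (SE 0.437, adjusted p = 0.0345, edgeR), and that of siFAT1-2 was -0.70 (SE 0.427, adjusted p = 0.302, edgeR), or -0.04 (adjusted p = 0.949) without the first NC repeat of HN6. The siFAT1-1 call rested on few libraries: when libraries were dropped singly it held in 5 of 12 fits, with adjusted p from 0.00761 to 0.127. Without the first NC repeat of HN6, in which IL1A stood far above the second, the log2 fold change was -1.23 (adjusted p = 0.0702). Without the first NC repeat of HN30 the adjusted p was 0.0727.

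IL18, an agonist that is stored as a precursor in epithelial cells, did not pass the test with either siRNA. It stood at 12.1 and 8.66 CPM in NC of HN6, 12.2 and 10.1 CPM with siFAT1-1 and 24.8 and 12.03 CPM with siFAT1-2. In HN30 it was 24.3 and 25.2 CPM in NC, 19.97 and 19.4 CPM with siFAT1-1 and 34.6 and 29.4 CPM with siFAT1-2. In HN30 the 3 conditions did not overlap, with siFAT1-1 lowest and siFAT1-2 highest. These are ranges of 2 repeats each, and the share of all genes with such ranges in HN30 is not given. The log2 fold changes over both lines were -0.12 for siFAT1-1 (SE 0.235, adjusted p = 0.818) and 0.59 for siFAT1-2 (SE 0.235, adjusted p = 0.122) by edgeR. The unadjusted P of siFAT1-2 was 0.0264, and its means were 177% (HN6) and 129% (HN30) of NC. IL18 is overlapped by an antisense gene (ENSG00000255292), and the strand setting of the counting is not given in the sources used here.

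IL36G and IL33 were near the floor of detection. IL36G, an agonist of stressed epithelium, had at most 1.15 CPM in HN6 and 0.707 CPM in HN30. In HN30 the NC repeats had 0.707 and 0.227 CPM, the siFAT1-1 repeats 0.149 and 0.123 CPM and the siFAT1-2 repeats 0 and 0.146 CPM, all 4 below NC. A count of 0 in that library allows up to 0.0865 CPM, counting error only. The share of all genes that lay below NC in this way within HN30 is not given. IL36G did not pass the edgeR test with either siRNA, with log2 fold changes of -0.80 (adjusted p = 0.563) and -1.50 (adjusted p = 0.189), which were -0.19 and -0.91 without the first NC repeat of HN30. IL33, a nuclear alarm cytokine, had 11 counts in all, which fell in 3 libraries with 2, 4 and 5 counts, and was not tested.

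**Figure D1:**
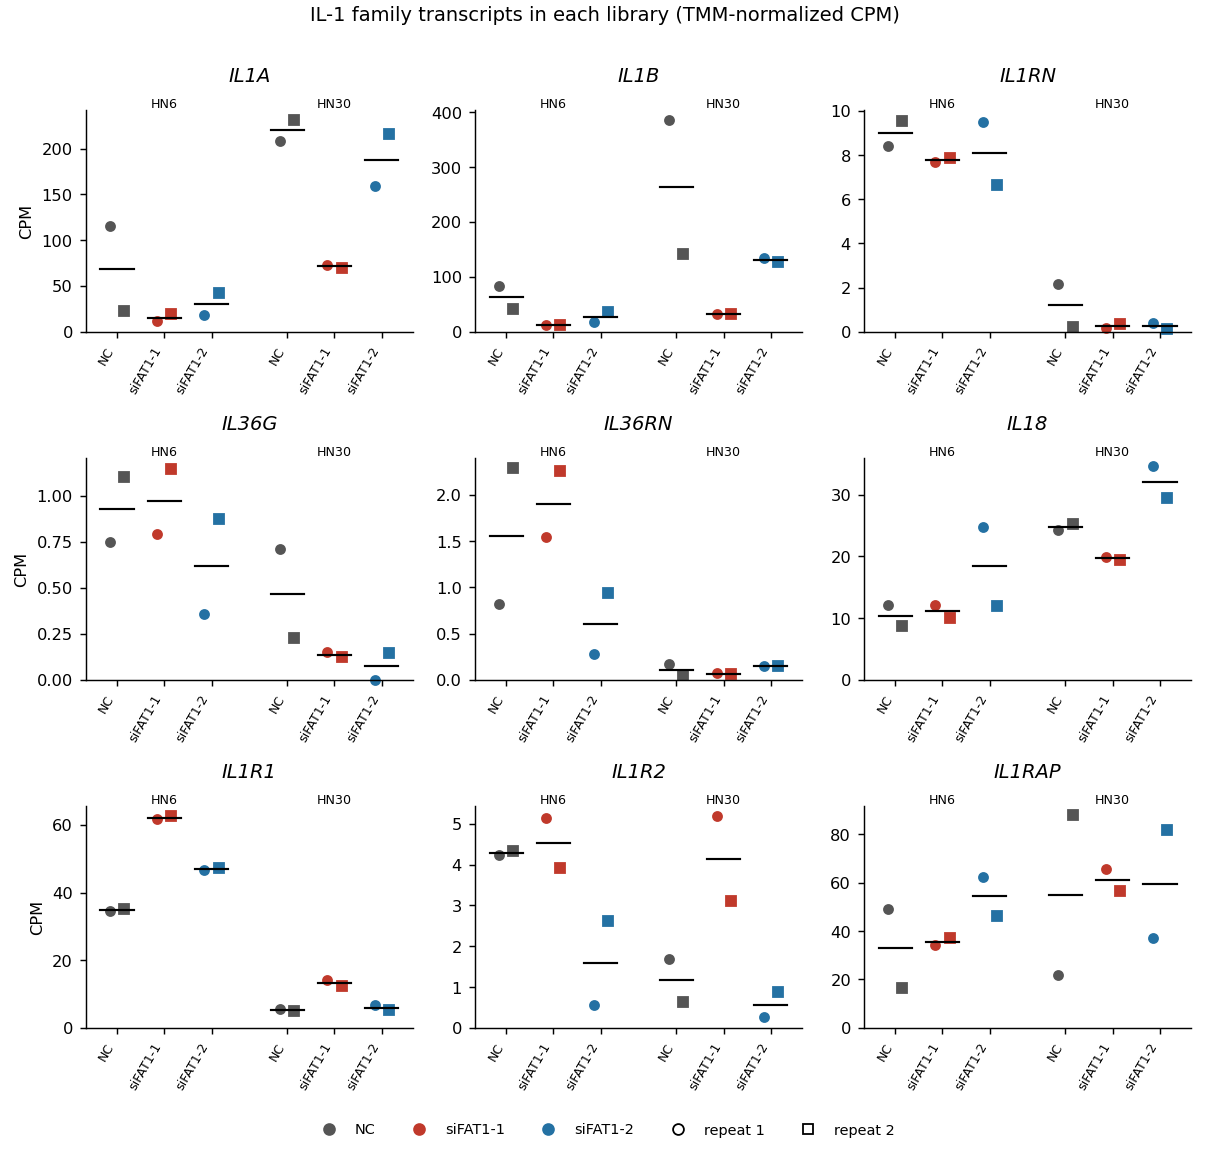
Expression of the 9 tested IL-1 family genes in each library, as TMM-normalized CPM on linear axes that start at 0. Colors stand for the siRNA, circles and squares for repeats 1 and 2, and lines for their mean, and IL1B lies lower in all 8 knockdown libraries than in NC of the same line, and IL1R1 lies higher in all 4 siFAT1-1 libraries.

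Among the antagonists, no change passed the test in any knockdown comparison. IL1RN, the IL-1 receptor antagonist, was expressed in HN6 at 8.42 and 9.56 CPM in NC, 7.67 and 7.86 CPM with siFAT1-1 and 9.51 and 6.66 CPM with siFAT1-2. In HN30 it was at 2.18 and 0.202 CPM in NC, 0.149 and 0.339 CPM with siFAT1-1 and 0.404 and 0.117 CPM with siFAT1-2. Only the first NC repeat of HN30 stood apart, and the log2 fold change within HN30 of -2.20 (adjusted p = 0.243) became 0.33 without that library. IL36RN, the antagonist of IL-36, had 0.819 and 2.29 CPM in NC of HN6, 1.54 and 2.26 CPM with siFAT1-1 and 0.277 and 0.935 CPM with siFAT1-2. It stayed at or below 0.170 CPM in HN30. Its log2 fold changes over both lines were 0.07 for siFAT1-1 (adjusted p = 0.968) and -0.62 for siFAT1-2 (adjusted p = 0.584, edgeR).

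IL1R1, the signalling receptor of both IL-1 cytokines, rose with siFAT1-1 while its ligands fell. In HN6 it went from 34.7 and 35.1 CPM in NC to 61.7 and 62.7 CPM with siFAT1-1 and was at 46.6 and 47.1 CPM with siFAT1-2. In HN30 it went from 5.72 and 4.90 CPM in NC to 14.1 and 12.3 CPM with siFAT1-1 and was at 6.75 and 5.28 CPM with siFAT1-2. The repeats of IL1R1 were close to each other, and in HN6 the 3 conditions did not overlap. In HN30 siFAT1-1 lay above the other conditions and siFAT1-2 overlapped NC. For such ranges within 1 line the share of all genes is not given. The siFAT1-1 means were 178% and 248% of NC, a log2 fold change of 1.08 over both lines (SE 0.184, adjusted p = 0.00864, edgeR). That call held in all 12 fits that left out 1 library, with log2 fold changes from 0.97 to 1.15. The log2 fold change of siFAT1-2 was 0.31 (SE 0.182, adjusted p = 0.280, edgeR). IL1R1 spans 102064544 to 102179874 on chromosome 2 and is overlapped on the other strand by IL1R1-AS1, whose reads cannot be told apart from its own where counting ignores strand.

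IL1RAP, the accessory chain shared by the IL-1, IL-33 and IL-36 receptors, differed widely between NC repeats. It was 49.1 and 16.6 CPM in NC of HN6 and 21.8 and 88.0 CPM in NC of HN30, and the knockdown libraries lay between 34.1 and 81.6 CPM. Its log2 fold changes were 0.14 for siFAT1-1 (SE 0.423, adjusted p = 0.895) and 0.43 for siFAT1-2 (SE 0.425, adjusted p = 0.540, edgeR). IL1R2, the decoy receptor, had 4.23 and 4.34 CPM in NC of HN6, 5.14 and 3.91 CPM with siFAT1-1 and 0.553 and 2.62 CPM with siFAT1-2. In HN30 it had 1.70 and 0.632 CPM in NC, 5.19 and 3.11 CPM with siFAT1-1 and 0.260 and 0.875 CPM with siFAT1-2. The log2 fold changes of IL1R2 against NC were 0.98 for siFAT1-1 (SE 0.565, adjusted p = 0.370) and -1.27 for siFAT1-2 (SE 0.570, adjusted p = 0.167), and neither passed the edgeR test.

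**Figure D2:**
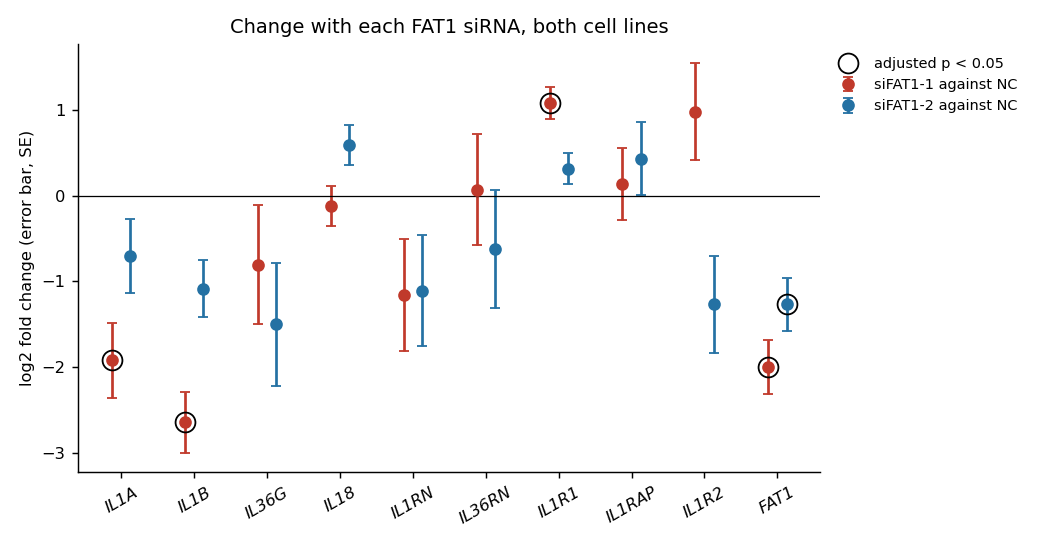
Log2 fold change of each tested IL-1 family gene and of FAT1 with siFAT1-1 (red) and siFAT1-2 (blue) against NC over both lines, with bars of 1 SE and open circles where the adjusted p was below 0.05. IL1A, IL1B and IL1R1 are circled for siFAT1-1 and no member is circled for siFAT1-2, and both comparisons share their NC libraries.

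Over the family, siFAT1-1 changed 3 of the 9 tested members at an adjusted p below 0.05, IL1A and IL1B downward and IL1R1 upward, where 3.15% of all tested genes were called. The study's thresholds, an unadjusted P below 0.05 with an absolute log2 fold change above 1, were set on limma-voom and are applied here to edgeR, where the same siRNA called 3 of 9, against 5.77% of all genes. With limma-voom they called 2 of 9 for siFAT1-1, both downward, and 2 in HN30. By ranges, IL1A and IL1B lay below and IL1R1 above both NC libraries of their line in all 4 siFAT1-1 libraries, as did 10.4% of all genes below and 10.1% above. For siFAT1-2 edgeR called 0 of 9 members after adjustment, where it called 11.3% of all genes. Unadjusted, 3 members had P below 0.05 with siFAT1-2, namely IL1B, IL18 and IL1R2, beside 28.4% of all genes. After adjustment limma-voom called 0 and DESeq2 called 1. Shares of all genes called are those of edgeR throughout, and none is given for limma-voom or DESeq2. At the study's thresholds siFAT1-2 called 2 of 9, IL1B and IL1R2, against 9.16% of all genes. That count was 0 without the first NC repeat of HN30 and 1 without that of HN6. Of the members, IL1B alone lay below NC in all 4 siFAT1-2 libraries (12.6% of all genes) and none lay above (9.42% of all genes). The median log2 fold change of the 9 members was -0.12 for siFAT1-1 and -0.70 for siFAT1-2, and that of all genes was -0.00287 and -0.00246.

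The siRNAs were next compared with each other, which asks whether both reagents gave the same response. IL1B was higher with siFAT1-2 than with siFAT1-1 by 1.56 on the log2 scale (SE 0.343, adjusted p = 0.0109, edgeR). IL1R1 was lower with siFAT1-2 by a log2 difference of -0.77 (SE 0.183, adjusted p = 0.0161, edgeR). IL1R2 was lower with siFAT1-2 by a log2 difference of -2.25 (SE 0.586, adjusted p = 0.0234, edgeR), and its siFAT1-2 libraries lay below the siFAT1-1 libraries of the same line in both lines. IL18 at 0.72 (adjusted p = 0.0550) and IL1A at 1.22 (adjusted p = 0.0699) missed the threshold. In all, 3 of 9 members were called after adjustment, against 16.8% of all genes, and 3 of 9 at the study's thresholds, against 12.6%. Without 1 library at a time, the adjusted p of IL1B stayed at or below 0.0491, while that of IL1R1 reached 0.0638 and that of IL1R2 reached 0.0762, both without the first siFAT1-1 repeat of HN30. FAT1 differed between the siRNAs by 0.73 (SE 0.307, adjusted p = 0.118), with the lower level under siFAT1-1. The summed keratinocyte markers were 9469 to 11854 CPM with siFAT1-1 and 4411 to 5974 CPM with siFAT1-2 in HN6, and 6963 to 7257 CPM and 2527 to 3473 CPM in HN30. In NC they were 8471 to 12490 CPM in HN6 and 4498 to 10277 CPM in HN30. The part of FAT1 or of these markers in the differences above was not tested.

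Pooling both siRNAs, which is the comparison of knockdown with control, edgeR called 0 of 9 members after adjustment. With the same pooling, 0.522% of all genes were called. Unadjusted, 3 members had P below 0.05, IL1A, IL1B and IL1R1, beside 14.2% of all genes, and limma-voom called 0 and DESeq2 called 1 after adjustment. The log2 fold changes were -1.66 for IL1B (SE 0.441, adjusted p = 0.1255), -1.19 for IL1A (SE 0.447, adjusted p = 0.251) and 0.75 for IL1R1 (SE 0.254, adjusted p = 0.209). FAT1 fell by 1.59 on the log2 scale (adjusted p = 0.0413, edgeR), a call that held in 1 of 12 fits without 1 library (adjusted p up to 0.124). At the study's thresholds 2 of 9 members were called, IL1A and IL1B, against 3.2% of all genes. Without the first NC repeat of HN6, the pooled value of IL1A was -0.50, and without the second it was -1.46.

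Within HN6, edgeR called 0 of 9 members after adjustment, 3 had an unadjusted P below 0.05, and limma-voom called 0 and DESeq2 2 after adjustment. Of all genes, 0.00696% were called there and 13.9% had an unadjusted P below 0.05. Within HN30 the counts were 0 of 9, 4 unadjusted, 0 by limma-voom and 2 by DESeq2, with 0.0557% of all genes called by edgeR and 14.0% at an unadjusted P below 0.05. These shares are those of edgeR, and the DESeq2 counts cannot be set against them. The log2 fold change of IL1B was -1.75 in HN6 (SE 0.396, adjusted p = 0.144) and -2.003 in HN30 (SE 0.394, adjusted p = 0.0937). With the first NC repeat of the line left out it was -1.16 in HN6 and -1.11 in HN30. With the second left out it was -2.20 in HN6 and -2.55 in HN30. The log2 fold change of IL1R1 was 0.63 in HN6 (SE 0.196, adjusted p = 0.235) and 0.75 in HN30 (SE 0.200, adjusted p = 0.170). The value of IL1A in HN6 was -1.67 (unadjusted P = 0.00924, adjusted p = 0.236, edgeR). It was -0.07 without the first NC repeat and -2.45 without the second. At the study's thresholds, 2 of 9 members were called in HN6, IL1A and IL1B (4.12% of all genes), and 3 of 9 in HN30, IL1B, IL1RN and IL36G (5.59% of all genes). Without the first NC repeat of HN30, 1 of 9 passed those thresholds in HN30, and without the first NC repeat of HN6, 1 of 9 in HN6. The difference of the effect between lines was called for 0 of 9 members by edgeR, limma-voom and DESeq2, and for 0.0% of all genes by edgeR. No member had an unadjusted P below 0.05 for it, beside 4.01% of all genes, and 2.59% of all genes passed the study's thresholds. The differences ranged from -2.02 for IL1RN (SE 1.03) to 1.08 for IL1R2 (SE 0.934).

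The lines differed in 7 of the 9 tested members. HN30 had more of the agonists IL1A (log2 difference 2.17, SE 0.362), IL1B (1.91, SE 0.282) and IL18 (0.96, SE 0.193). HN6 had more of both antagonists and of the receptor, with HN30 minus HN6 differences of -4.17 for IL1RN (SE 0.577), -3.47 for IL36RN (SE 0.572) and -2.64 for IL1R1 (SE 0.157). IL36G was also lower in HN30 (-2.14, SE 0.593). These 7 of 9 members had adjusted p from 8.25e-08 to 0.00851 in edgeR and were called in all 12 fits that left out 1 library, beside 56.6% of all genes. IL1R2 at -1.14 (adjusted p = 0.0547) and IL1RAP at 0.55 (adjusted p = 0.195) were not called. With the 4 NC libraries alone, 1 of 9 members passed. In bulk RNA, fewer cells that express a gene and less RNA per cell cannot be told apart.

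Levels of different genes were compared per kilobase of the union of annotated exons. Which of IL1A and IL1B comes first depends on that choice of length. IL1B has 3009 bases in the union and 1617 in its longest transcript, and IL1A has 2017 by either. In the NC libraries of HN6 the order was IL1A with 34.1 ± 32.5 CPM per kb (SD, n = 2), IL1B with 20.8 ± 9.99, IL1R1 with 4.90 ± 0.0378, IL18 with 3.99 ± 0.936, IL1RAP with 2.93 ± 2.05, IL1RN with 2.41 ± 0.216 and IL1R2 with 1.45 ± 0.0276. IL36G with 0.674 ± 0.180 and IL36RN with 0.484 ± 0.323 CPM per kb followed. In HN30 NC the agonists IL1A at 109 ± 7.86 and IL1B at 87.5 ± 57.3 CPM per kb were again highest. IL18 at 9.51 ± 0.254, IL1RAP at 4.90 ± 4.17 and IL1R1 at 0.745 ± 0.0808 CPM per kb followed. IL1R2 at 0.394 ± 0.255, IL36G at 0.340 ± 0.247 and IL1RN at 0.319 ± 0.374 CPM per kb did not differ beyond their spread, and IL36RN was the lowest tested member at 0.0343 ± 0.0263. IL33 had no count in HN30 NC. IL1A and IL1B overlapped in both lines, and in HN6 so did IL1RAP with IL18 and with IL1RN, and IL36G with IL36RN.

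**Figure D3:**
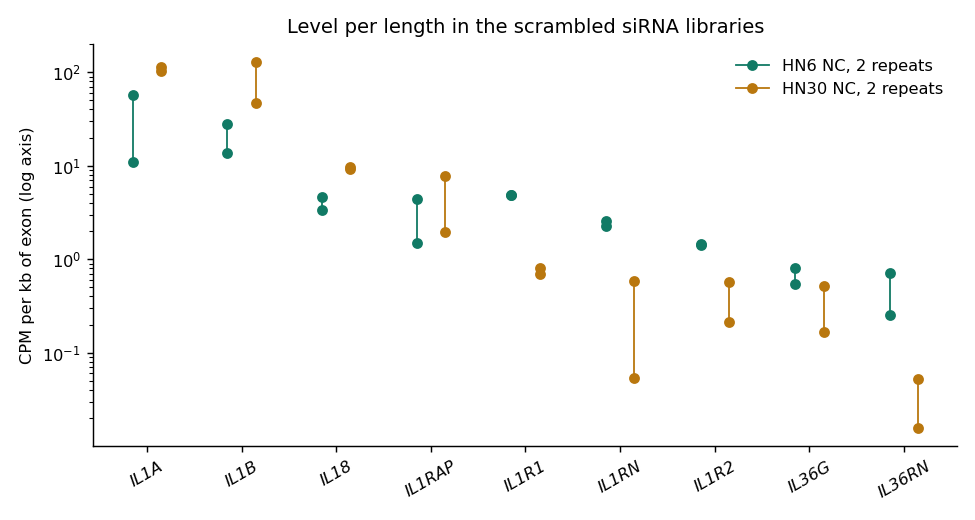
Level per length of the 9 tested members in the NC libraries, as CPM per kilobase of the union of annotated exons on a log axis, with 1 point for each repeat and a line joining both repeats of a line. The agonists IL1A and IL1B lead in both lines, and IL1R1, IL1RN and IL36RN are higher in HN6 than in HN30.

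Across conditions, IL1B ranked HN30 NC first, then HN30 siFAT1-2, HN6 NC, HN30 siFAT1-1, HN6 siFAT1-2 and HN6 siFAT1-1. Of the neighbours in this order only HN30 siFAT1-1 and HN6 siFAT1-2 overlapped. IL1R1 had HN6 siFAT1-1 first, then HN6 siFAT1-2, HN6 NC, HN30 siFAT1-1, HN30 siFAT1-2 and HN30 NC, and only the last neighbours overlapped. IL1A ranked HN30 NC first, then HN30 siFAT1-2, HN30 siFAT1-1, HN6 NC, HN6 siFAT1-2 and HN6 siFAT1-1, and only HN30 siFAT1-2 and HN30 siFAT1-1 did not overlap as neighbours.

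To describe which transcripts ran most like each member, log2 CPM was centred within each line and correlated over the 12 libraries, which share 4 NC libraries and their normalization. IL1A and IL1B correlated at r = 0.853, IL1B and IL1R1 at r = -0.872, IL1A and IL1R1 at r = -0.759 and IL18 and IL1R2 at r = -0.859. The ranking depends on the measure: by Spearman correlation 3 of the 18 genes named next kept such a place, and CXCL2 ranked 73 and UBE2N 182 for IL1B. Among all tested genes, IL1B was most like CXCL2, a neutrophil chemokine (r = 0.955), and UBE2N, a ubiquitin-conjugating enzyme of the IL-1 signalling cascade (r = 0.952). IL1A was most like PRNP (r = 0.937) and TMEM126A (r = 0.902), and IL18 was most like ABHD17B (r = 0.967) and MAPK1IP1L (r = 0.966). IL1R1 was most like DGKA (r = 0.947) and ADTRP (r = 0.936), and IL1R2 was most like POU2F2 (r = 0.975) and VAV1 (r = 0.943). IL1RAP was most like TET1 (r = 0.942) and DARS (r = 0.939). IL1RN was most like GAS6 (r = 0.903) and LRRN4 (r = 0.899), IL36G most like ANXA8L1 (r = 0.942) and CIRBP (r = 0.940), and IL36RN most like DDB2 (r = 0.941) and ZC3H18 (r = 0.928).

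The other genes of the pathway were followed in lists grouped by function. Of 4 further family ligands only IL37, an anti-inflammatory cytokine, passed the filter. It had 2.87 and 0.395 CPM in NC of HN6 and 0.707 and 0.0505 CPM in NC of HN30, and 0 to 0.422 CPM in the knockdown libraries. Its log2 fold change over both siRNAs was -2.48 (unadjusted P = 0.00343, adjusted p = 0.136, edgeR), which was -1.74 without the first NC repeat of HN30 and -1.93 without that of HN6. Of 8 further receptors and binding proteins 5 were tested. None passed after adjustment in the pooled comparison by edgeR, limma-voom or DESeq2. By edgeR 1 of 5 had an unadjusted P below 0.05, beside 14.2% of all genes. That gene was IL1RL2, the IL-36 receptor, at 0.91 (SE 0.348, unadjusted P = 0.0210, adjusted p = 0.261).

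Of 22 signal transduction genes 21 were tested, and 3 were lower and 1 higher at an unadjusted P below 0.05 in the pooled comparison, beside 14.2% of all genes. MAP3K3, a kinase upstream of NF-κB, fell with both siRNAs. It went from 80.5 and 87.3 CPM in NC of HN6 to 45.0 and 47.5 CPM with siFAT1-1 and 39.6 and 60.9 CPM with siFAT1-2, and from 45.8 and 38.6 CPM in NC of HN30 to 18.4 and 14.5 CPM and to 19.1 and 27.4 CPM. No knockdown library overlapped NC of its line, and 3.06% of all genes lay below NC in all 8. The log2 fold changes of MAP3K3 were -1.10 (adjusted p = 0.0115) for siFAT1-1, -0.80 (adjusted p = 0.0233) for siFAT1-2 and -0.94 pooled (adjusted p = 0.0413, edgeR). Of 12 fits without 1 library the pooled call was kept in 2, the siFAT1-1 call in 10 and the siFAT1-2 call in 9. NFKB1, a subunit of NF-κB, fell with siFAT1-2 by 1.38 on the log2 scale (SE 0.191, adjusted p = 0.00263), and its siFAT1-1 value was -0.47 (SE 0.187, adjusted p = 0.200, edgeR). IRAK1, the kinase bound to the activated receptor, had a pooled value of -0.59 (adjusted p = 0.170) and TRAF6, the ubiquitin ligase after it, of 0.47 (adjusted p = 0.323). With siFAT1-2 edgeR called 5 of 21 after adjustment, beside 11.3% of all genes. IRAK2, RELA and CHUK were among them and are named after their values were seen. IRAK2, a partner of IRAK1, fell by 1.17 (adjusted p = 0.0114), RELA, the transactivating NF-κB subunit, fell by 1.32 (adjusted p = 0.00312), and CHUK, a kinase of the IκB kinase complex, was higher by 0.80 (adjusted p = 0.0274, edgeR). The median log2 fold change of the list was -0.12 pooled, beside 0.0217 for all genes.

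Of 23 genes of cytokine maturation and release 20 were tested. With the pooled siRNAs edgeR called 0 after adjustment, beside 0.522% of all genes. At an unadjusted P below 0.05 there was 1 of 20, beside 14.2% of all genes. That gene was NLRP6, an inflammasome sensor, with a pooled value of 2.64 (unadjusted P = 0.0431, adjusted p = 0.336, edgeR). NLRP6 had 22 and 34 counts over both repeats with siFAT1-1 in HN6 and HN30 and 2 or 3 counts in each other condition. Only its siFAT1-1 libraries could carry it past the filter on low counts. A higher value was thereby set by the filter, and its P cannot be read as support for a rise. By limma-voom and DESeq2 0 were called in the pooled comparison. With siFAT1-2 edgeR called 2 of 20, beside 11.3% of all genes, and both are named after their values were seen. GSDMD, the pore protein through which mature IL-1β leaves cells, fell by 0.76 (adjusted p = 0.0135). CAPN1, a calpain protease, fell by 1.26 (adjusted p = 0.00159, edgeR).

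IL-1 response genes, 30 transcripts known to be induced by IL-1, were counted next. Of the 28 tested, 8 were lower and 0 higher at an unadjusted P below 0.05 in the pooled comparison, where 14.2% of all genes had such a P. After adjustment edgeR called 0, limma-voom 0 and DESeq2 4, and no share of all genes is given for limma-voom or DESeq2. The 8 were 4 without the first NC repeat of HN6 and 5 without the first NC repeat of HN30. With siFAT1-1, 1 of 28 was lower after adjustment, where 3.15% of all genes were called. It was CXCL2 at -1.43 (SE 0.273, adjusted p = 0.0153, edgeR), which was not called without the first NC repeat of HN30. With siFAT1-2, 6 of 28 were lower and 0 higher, where 11.3% of all genes were called. The 6 were NFKBIA, MMP9, CSF2, TNFAIP3, IL6 and ZC3H12A, of which CSF2, IL6 and ZC3H12A are named, like CXCL2, after their values were seen. Without the first NC repeat of HN6, 2 genes of the list were lower and 2 higher after adjustment with siFAT1-2, and without that of HN30, 4 were lower. The median log2 fold change of the list was -0.43 for siFAT1-1 and -0.86 for siFAT1-2. The 15 keratinocyte and squamous markers had a median of 0.38 with siFAT1-1, with 2 higher and 0 lower after adjustment, and of -1.02 with siFAT1-2, with 5 lower and 2 higher. Their part in the response genes was not tested.

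MMP9, a gelatinase, was at 541 and 59.3 CPM in NC of HN6 and at 41.2 and 0.354 CPM in NC of HN30. It was between 15.7 and 59.1 CPM in the knockdown libraries of HN6 and at or below 0.554 CPM in those of HN30. SERPINB2, an inhibitor of plasminogen activators, was at 467 and 133 CPM in NC of HN6 and at 360 and 3.54 CPM in NC of HN30, and its knockdown libraries had 31.7 to 95.3 CPM and 0.875 to 9.46 CPM. In both genes the first NC repeat was far above the second, as it was for IL1B in both lines. The pooled log2 fold changes were -4.70 for MMP9 (adjusted p = 0.0710) and -4.30 for SERPINB2 (adjusted p = 0.0906, edgeR), and -2.45 and -1.67 without the first NC repeat of HN30. The NF-κB feedback inhibitors TNFAIP3 (-0.91, SE 0.2501, adjusted p = 0.0370) and NFKBIA (-0.89, SE 0.164, adjusted p = 0.00785) fell with siFAT1-2. The NFKBIA call held in all 12 fits that left out 1 library, and the TNFAIP3 call in 4 of 12, with adjusted p up to 0.107. NFKBIA stood at 235 and 207 CPM in NC of HN6 and 269 and 204 CPM in NC of HN30. With siFAT1-2 it stood at 101 and 97.9 CPM in HN6 and 139 and 168 CPM in HN30, with no overlap. Of all genes, 12.6% lay below NC in all 4 siFAT1-2 libraries. The siFAT1-1 values were -0.86 (adjusted p = 0.0868) for TNFAIP3 and -0.45 (adjusted p = 0.168, edgeR) for NFKBIA.

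**Figure D4:**
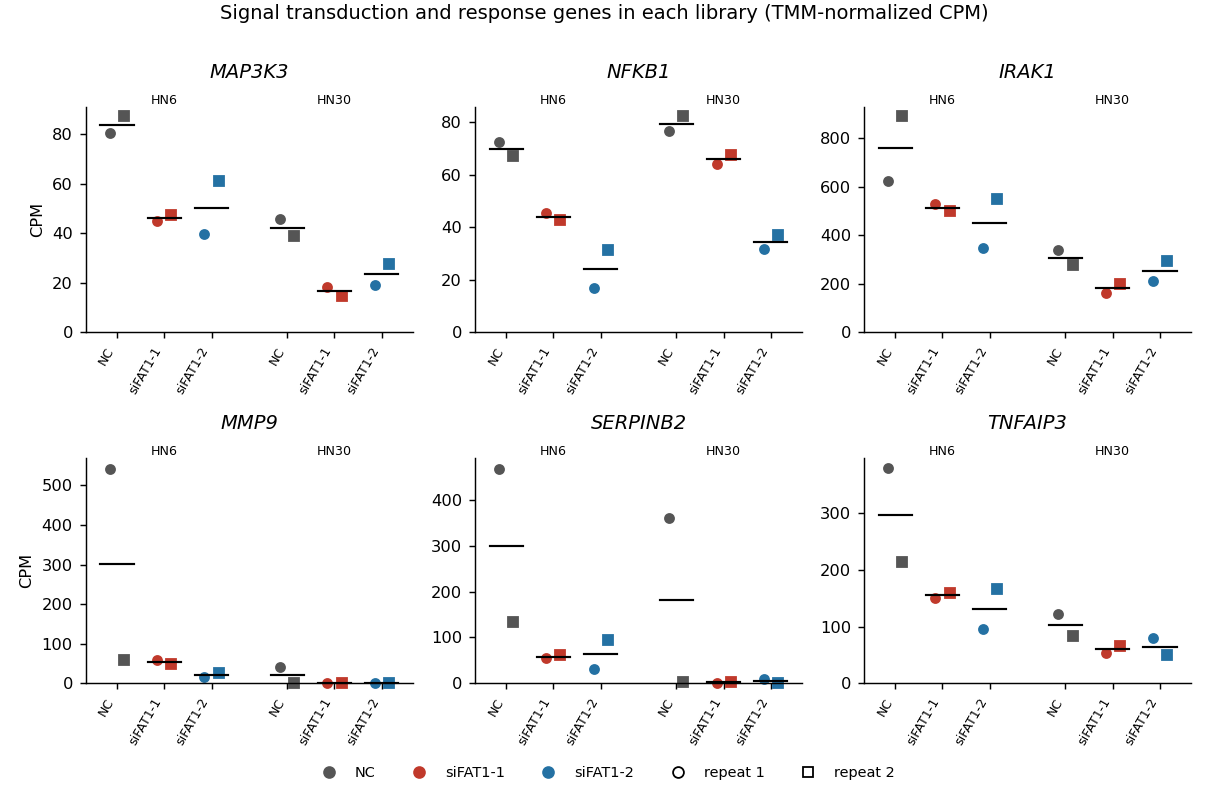
Expression of signal transduction genes (MAP3K3, NFKB1, IRAK1) and IL-1 response genes (MMP9, SERPINB2, TNFAIP3) in each library, as TMM-normalized CPM on linear axes from 0, with colors for the siRNA, circles and squares for repeats 1 and 2 and lines for means. MAP3K3 lies lower in all 8 knockdown libraries, and in MMP9 and SERPINB2 the first NC repeat of each line stands far above the second.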

How the data were processed

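Poly(A) RNA was taken from both lines 24 h after transfection. Per the labels and the study's methods, the authors filtered the reads, aligned them to hg38 and deposited whole-number counts per gene for 12 libraries. The submitters' processing notes name HISAT2 and featureCounts; the annotation and the strand setting are not given in the sources used here. Of 19225 entries 2112 had no count.

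The counts were normalized by TMM, filtered with filterByExpr (minimum count 10) and tested with edgeR 4.0.16 (glmQLFit, glmQLFTest) in R 4.3.3, with Benjamini-Hochberg adjustment over 14360 genes. Terms were cell line and knockdown, cell line and siRNA, or the 6 conditions for within-line values. limma 3.58.1 (voom) and DESeq2 1.42.0 served as alternatives, with DESeq2 size factors, no filter, no cell line term, only the libraries concerned, and each library left out in turn. CPM carried no prior count; fold changes used a prior count of 0.125 and log2 CPM one of 2. Total counts of 26430049 or more put a floor of 3 counts at or below 0.112 CPM, counting error only. Summaries and figures were made in Python 3.11.15 with pandas 2.3.3, numpy 2.4.6, matplotlib 3.10.9 and scipy 1.17.1, and the scripts were tested on simulated data. Gene positions and exon lengths are from GENCODE on GRCh38, promoters from RefSeq (GRCh38.p14).

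The genes and the lists were chosen with earlier results of these data known. Named were the 10 genes, FAT1, up to 4 genes of each pathway list with the smallest P below 0.05 in the pooled comparison, and the 2 genes most like each member. The labels number the repeats time1 and time2, and a fit with that number as a replicate block was an alternative. Chi-square tests found repeats to differ by more than sampling noise in every condition (14.7 to 247 per degree of freedom), so none was a duplicate.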

Additional observations from a re-analysis of the deposited data

Results flagged for a closer look

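The response to the siRNAs differed in 3 of 9 members by a direct test of siFAT1-2 against siFAT1-1. The test was edgeR with Benjamini-Hochberg adjustment, which called 16.8% of all genes. For IL1B the log2 difference was 1.56 (adjusted p = 0.0109), with siFAT1-2 higher in 4 of 4 libraries than both siFAT1-1 libraries of the same line. For IL1R1 it was -0.77 (adjusted p = 0.0161) and for IL1R2 it was -2.25 (adjusted p = 0.0234), with siFAT1-2 lower in 4 of 4 libraries for each. These ranges are from the libraries of the test itself, and the share of all genes with such ranges is not given. The IL1R1 and IL1R2 calls were lost without the first siFAT1-1 repeat of HN30. In HN6 siFAT1-1 left 17.1% of FAT1 and siFAT1-2 28.0%, in HN30 39.1% and 65.4% of NC, and the part of FAT1 in these differences was not tested. Conditions had 2 repeats, too few to look for single libraries far from their group.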

How the results depend on the processing

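Counts of called members were recomputed under each alternative, and the cause of a change was not tested. The shares of all genes called under the alternatives are not given, so the counts cannot be set against them. After adjustment DESeq2 called 1 member pooled, 1 for siFAT1-2, 5 between siRNAs, 2 in HN6 and 2 in HN30, and without the filter on low counts siFAT1-2 called 1. Without the cell line term the adjusted counts were 0 for siFAT1-1 and 0 between siRNAs, and the study's thresholds gave 1 pooled, 1 for siFAT1-1 and 0 for siFAT1-2. The study's thresholds gave 1 for siFAT1-2 with limma-voom, 1 in HN30 with that line's libraries alone and 1 for the difference between lines with DESeq2. With the 4 NC libraries alone 1 member differed between lines. Of the 18 most-like genes, 3 stayed with Spearman correlation.

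The titles give conditions of a line the same repeat numbers, and the labels do not say whether a number stands for a shared batch. Deviations of same-numbered libraries correlated at 0.0800 to 0.221 in HN6 and -0.0312 to 0.393 in HN30, which does not settle whether they share one. With a replicate block the study's thresholds gave 1 member pooled and 1 for siFAT1-2, siFAT1-1 called 2 after adjustment (IL1A had adjusted p = 0.0705), and 4 differed between siRNAs, with IL18 at 0.0392 added. MAP3K3 pooled had 0.0814.

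Leaving out 1 library at a time, adjusted counts ran from 0 to 0 pooled, 2 to 3 for siFAT1-1, 0 to 1 for siFAT1-2, 1 to 5 between siRNAs, 7 to 8 between lines, 0 to 1 in HN6, 0 to 0 in HN30 and 0 to 0 for the difference between lines. Counts by the study's thresholds ran from 2 to 3, 2 to 4, 0 to 3, 3 to 3, 6 to 8, 1 to 3, 1 to 4 and 0 to 1 in that order.

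Signs turned in these values, none of which had passed the edgeR test. IL1R2 pooled was -0.35 with limma-voom and -0.00931 without the line term, IL1RN between siRNAs was -0.0928 with the block, and IL36RN in HN30 was 0.12 with limma-voom. Without 1 library, HN30 values ran from -0.0415 to 0.0755 for IL18, -0.16 to 1.28 for IL1R2, -0.55 to 1.47 for IL1RAP, -3.08 to 0.33 for IL1RN and -0.75 to 0.93 for IL36RN. HN6 values ran from -0.19 to 1.39 for IL1RAP, -0.65 to 0.00687 for IL36G and -1.11 to 0.35 for IL36RN. Pooled values ran from -0.17 to 0.42 for IL1R2 and -0.47 to 0.26 for IL36RN. Differences between lines ran from -0.86 to 1.52 for IL1A, -0.84 to 0.65 for IL1B, -1.26 to 1.05 for IL1RAP, -2.90 to 0.51 for IL1RN and -0.48 to 1.47 for IL36RN. siFAT1-1 values ran from -0.13 to 0.64 for IL1RAP and -0.32 to 0.60 for IL36RN, IL1RN between siRNAs from -0.245 to 0.289, and NLRP6 with siFAT1-2 from -0.44 to 0.90. Depth limited IL36G, IL36RN, IL33 and, in HN30, IL1RN, while the common dispersion over all genes was 0.143.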
